A study of Mus musculus with 82 samples.

Results

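The libraries of retinal ganglion cells (RGCs) sorted from sham-treated eyes were set against those of the superior colliculi of sham-treated mice. RGCs are the neurons that send the output of the retina to the brain, and in the mouse nearly all of them reach the superior colliculus, a layered midbrain center for vision and orienting. The sorted cells should therefore hold the cell bodies of one neuron type, and the colliculus its axon terminals, local neurons, glia, vessels and meninges. Members were chosen by their titles, "RGC - SHAM" (10 libraries) and "SC - SHAM" (10 libraries), which gave 20 of the 82 libraries of the series.

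Both groups came from mice of the cross Vglut2-ires-Cre × Thy1-STOP-YFP of either sex, which the labels give as WT and as about 10 weeks old, with 1 retina or 1 colliculus per library. The right eye had received a vehicle injection of balanced salt solution in place of microbeads, and the left colliculus an AAV2/7 "null" vector with mCherry under a CaMKIIα promoter. The ligand CNO was given repeatedly, as in every group of the study. In this cross Cre follows the gene of the vesicular glutamate transporter *Slc17a6* (VGLUT2), and the Thy1 promoter drives YFP once Cre has acted. The label therefore reads past as well as present use of *Slc17a6*. Retinas were dissociated with papain and living YFP-positive cells were sorted, whereas colliculi were frozen and lysed whole. The RGC RNA was amplified with Smart-Seq2, which samples whole transcripts, and the collicular RNA with QuantSeq, which reads one site near the 3′ end. Tissue, dissociation, sort and library kit change together between the groups and cannot be told apart. Accordingly, only differences of 3 or more on the log2 scale were called, with an adjusted p of at most 0.1 in edgeR's quasi-likelihood test with Benjamini-Hochberg adjustment, and levels were otherwise ranked within each tissue. Levels are counts normalised to library size (CPM) scaled by trimmed means (TMM), and a log2 fold change is RGC minus colliculus, given with its standard error (SE).

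Total counts were 3534776 to 6889040 in the RGC libraries (median 4615985.5) and 2088172 to 3075802 in the collicular ones (median 2724518.5), with 13414 to 15395 and 17378 to 18098 genes detected. RGC replicates 1 to 4 held 15097 genes or more, and the other 6 held 14250 or fewer. SC replicate 1 has a SHAM title but a treatment label of OHT+DREADD. That label conflicts with both the vehicle injection and the null vector given above, and the library was kept as SHAM by its title. Of 17790 genes tested, 2260 were higher in RGCs (12.7%), 2446 were lower (13.7%) and 13084 were not called. The counts of every gene list below are read beside these shares. Without SC replicate 1 the counts were 2273 and 2426, and without RGC replicates 1 to 4 they were 1793 and 2967. With the replicate number as a block they were 1980 and 3628. With scaling by library totals alone all fold changes shifted by a median of -0.65, and the counts were 1820 higher and 3330 lower, so that 35.3% instead of 48.0% of calls were higher.

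The leading genes of the sorted libraries were those of photoreceptors. All 22 rod genes of a fixed list and all 10 cone genes were higher in RGCs, against 12.7% of all genes tested. The median log2 fold change was 11.81 for the rod genes and 11.11 for the cone genes, and 11.38 for the rod genes with the 4 that had 0 collicular counts set at their lower bound, beside -0.10 over all genes. The rod list summed to between 31106 and 116530 CPM per RGC library (median 51375), against 9.64 to 21.5 CPM per collicular library (median 12.3). For cones the sums were 6826 to 25906 CPM in RGCs and 3.95 to 11.6 CPM in the colliculus. Every rod gene had separate ranges in the tissues, as had 9 of the 10 cone genes, against 44.4% of all higher genes. A change of a marker in bulk RNA does not tell apart more cells of a type from more RNA per cell.

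*Gnat1*, the α subunit of rod transducin, stood at 3830, 7376 and 17475 CPM (lowest, median and highest) in RGCs, against 0, 0 and 0.584 CPM in the colliculus. Its log2 fold change was 15.76 (SE 0.45, adjusted p = 5.8e-20, edgeR), on 329624 against 4 counts, and the ranges were separate. *Pdc*, which binds the βγ subunits of transducin, had 185146 counts in RGCs and 0 in the colliculus, and was at least 54148-fold higher. *Gngt1*, the γ subunit of rod transducin, had 118307 counts against 0 and was at least 33773-fold higher. These bounds set a floor of 3 counts over the group, and they cover counting error only. *Sag*, the arrestin that ends the rod response, had 4590, 7027 and 18892 CPM against 0, 0.344 and 2.28 CPM. *Rom1*, of the outer segment disc rim, was the rod gene with the highest collicular level, at 5.83 CPM in the median library against 2612 CPM in RGCs.

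Rod genes are regulated in part by CRX, a homeodomain factor of photoreceptors that binds the core TAATCC. The promoter of a gene was taken as 250 bases before to 50 after its start (RefSeq, GRCm38.p6). Genes with several starts counted as holding a motif if any promoter did. Of the rod list, 15 genes matched, and TAATCC on either strand was found in 8 of them (53.3%), against 8.14% of 27025 genes. It was found in 1 of 6 cone promoters, in 2 of 10 of the bipolar list and in 2 of 11 of the myelin list. A match is only a description of these letters. A pair of rod promoters that hold the motif and a myelin promoter are printed because they belong to genes at opposite ends of the comparison. Capitals mark TAATCC or its complement in the rod promoters, and CTTTGT or its complement, a core of SOX factors, in the *Mobp* promoter. The *Gngt1* promoter lies at chr6:3993758-3994057 and that of *Sag* at chr1:87803430-87803729, both on the plus strand.
Gngt1: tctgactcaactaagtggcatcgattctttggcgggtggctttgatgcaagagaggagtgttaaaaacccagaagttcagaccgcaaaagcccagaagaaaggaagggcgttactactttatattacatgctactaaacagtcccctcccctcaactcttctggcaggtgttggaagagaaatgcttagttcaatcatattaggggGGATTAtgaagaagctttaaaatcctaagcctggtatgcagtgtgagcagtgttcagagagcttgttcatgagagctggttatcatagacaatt
Sag: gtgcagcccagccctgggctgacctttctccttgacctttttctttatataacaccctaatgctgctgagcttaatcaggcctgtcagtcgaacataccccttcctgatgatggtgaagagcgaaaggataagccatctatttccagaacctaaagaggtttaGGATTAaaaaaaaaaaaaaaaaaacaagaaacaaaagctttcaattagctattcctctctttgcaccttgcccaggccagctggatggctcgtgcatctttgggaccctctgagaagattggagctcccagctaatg
The *Mobp* promoter lies at chr9:120149492-120149791, on the plus strand, and holds 6 matches to CTTTGT or its complement.
Mobp: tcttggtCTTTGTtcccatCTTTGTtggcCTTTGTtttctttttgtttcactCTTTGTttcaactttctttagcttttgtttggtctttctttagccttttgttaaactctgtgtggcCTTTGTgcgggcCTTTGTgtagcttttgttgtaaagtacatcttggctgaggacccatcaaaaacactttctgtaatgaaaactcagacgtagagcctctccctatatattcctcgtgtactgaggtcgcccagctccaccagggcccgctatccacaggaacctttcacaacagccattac
CTTTGT on either strand was found in 4 of 11 myelin promoters (36.4%), in 6 of 15 rod promoters (40.0%) and in 21% of all promoters.

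In cones, *Opn1sw*, the short-wavelength opsin, had 2587, 6336 and 12569 CPM in RGCs and 0, 0 and 0.313 CPM in the colliculus. Its collicular count was 2, and the ratio of levels was 117480 (95% counting interval 32522 to 970090). *Opn1mw*, the middle-wavelength opsin, had 430, 697 and 1530 CPM against 0, 0.433 and 1.45 CPM. *Gnb3*, the transducin β subunit of cones and ON bipolar cells, had 1788, 2811 and 5241 CPM against 0, 0.450 and 0.842 CPM, a log2 fold change of 12.59 (SE 0.31, adjusted p = 4.1e-21, edgeR). Outside of the lists, *Mgarp*, of a mitochondrial protein, was among the 10 genes of highest level in RGCs, with a narrow range of 9134 to 12579 CPM against 0 to 1.53 CPM.

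Other retinal interneurons were represented as well. Of 11 bipolar cell genes, 10 were higher and 0 lower in RGCs, with *Prkca* as the exception (log2 fold change 1.90). *Pcp2*, of ON bipolar cells, stood at 849, 1701 and 3672 CPM in RGCs and 0, 0.996 and 1.75 CPM in the colliculus (log2 fold change 10.67, SE 0.35, adjusted p = 1.1e-18, edgeR). *Trpm1*, the cation channel of ON bipolar cells, had 13195 counts against 0 and was at least 4020-fold higher. *Grm6*, the glutamate receptor that inverts the light response, had 5214 counts against 3, a ratio of levels of 1511 (95% counting interval 517 to 7327). The summed bipolar level was 1857 to 7450 CPM in RGCs and 53.9 to 65.5 CPM in the colliculus.
Of 11 amacrine and horizontal cell genes, 5 were higher and 0 lower, and 2 to 5 were higher over 12 alternative settings. The other 6 (*Slc6a9*, *Tfap2a*, *Tfap2b*, *Prox1*, *Onecut1* and *Lhx1*) were not called. *Pax6*, the eye field factor kept by amacrine cells, stood at 403, 1758 and 2132 CPM in RGCs and 1.12, 2.69 and 4.98 CPM in the colliculus (log2 fold change 9.11, SE 0.34, adjusted p = 1.3e-17, edgeR). It is also on the list of retinal factors and does not mark amacrine cells alone.
Of 8 Müller glia genes, 2 were higher and 3 (*Sox9*, *Vim* and *Aqp4*) lower, with 2 to 4 lower over 12 alternative settings. The median log2 fold change of this list was -2.21. *Rlbp1*, which carries retinoids, had 67.1 to 261 CPM in RGCs and 0.652 to 2.32 CPM in the colliculus, and *Dkk3*, of a secreted protein, 741 to 2489 CPM against 19.5 to 24.4 CPM. *Glul*, glutamine synthetase, which collicular astrocytes use too, was not called, at 262 CPM in the median RGC library and 1406 CPM in the median collicular library.

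**Figure D1:**
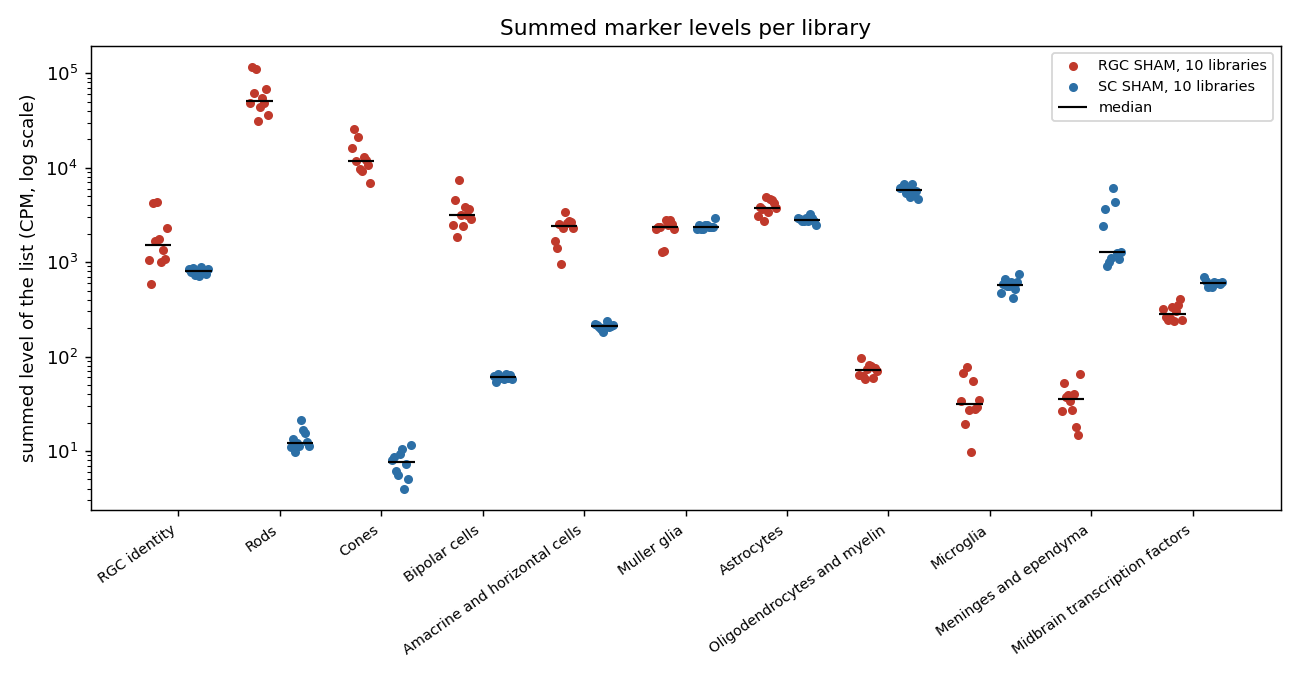
Summed level of 11 marker lists (CPM, log scale) in each library, with RGC SHAM to the left of SC SHAM and bars at the medians. Rod sums lie between 31106 and 116530 CPM in RGCs and between 9.64 and 21.5 CPM in the colliculus, while the RGC identity sums overlap between the tissues.

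The genes that identify RGCs were a minor part of the sorted libraries. Of 14 such genes, 5 were higher, 2 lower and 7 not called, with a median log2 fold change of 1.61. Their sum was 580 to 4339 CPM in RGCs (median 1509) and 716 to 893 CPM in the colliculus, so that the ranges overlapped. It came to between 0.498% (replicate 2) and 13.9% (replicate 5) of the rod sum of the same library. Per kilobase of exonic length, which allows genes of the full-length libraries to be compared, the median RGC identity gene had 10.3 CPM and the median rod gene 426 CPM in RGCs. The label of the sort thus names genes that were present, but the libraries were led by those of photoreceptors. The part of photoreceptor RNA in the differences between the tissues was not tested.

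The 5 higher genes were *Isl1*, *Sncg*, *Chrnb3*, *Chrna6* and *Trarg1*. *Sncg*, γ-synuclein, stood at 80.9, 196 and 443 CPM in RGCs, against 4.87, 8.42 and 12.3 CPM in the colliculus, with no overlap (log2 fold change 4.54, SE 0.31, adjusted p = 1.3e-12, edgeR). *Trarg1*, listed as an RGC gene under its older symbol Tusc5, had 155, 639 and 3021 CPM against 0, 0.344 and 1.22 CPM. Its level was 2894 and 3021 CPM in replicates 3 and 5, and 155 CPM in replicate 2. *Isl1*, a LIM homeodomain factor of RGCs that bipolar and amacrine cells also use, had 7442 counts against 0 and was at least 2234-fold higher. *Chrna6* and *Chrnb3*, subunits of the nicotinic receptor on retinal axons, had log2 fold changes of 3.96 (SE 0.23) and 3.67 (SE 0.25). Of 7 nicotinic receptor genes, 4 were higher and 0 lower, and 2 to 4 were higher over 12 alternative settings.

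Both genes of the reporter cross were lower in the sorted cells. *Slc17a6* stood at 0.292, 10.9 and 35.2 CPM in RGCs and 131, 181 and 210 CPM in the colliculus, a log2 fold change of -3.79 (SE 0.36, adjusted p = 8.0e-10, edgeR). *Thy1*, a surface protein of projection neurons, had 13.0, 29.2 and 76.2 CPM against 418, 475 and 566 CPM (log2 fold change -3.71, SE 0.27, adjusted p = 5.7e-12, edgeR). Within the RGC libraries *Thy1* ranked at the percentile 77.6 and *Slc17a6* at the percentile 57.3, and within the colliculus they ranked at 99.4 and 96.7. In the colliculus *Slc17a6* marks local excitatory neurons.
Of the other RGC genes, *Rbpms*, an RNA-binding protein used to count RGCs, had 2.56, 12.7 and 56.3 CPM in RGCs and 2.10, 3.62 and 4.77 CPM in the colliculus. Its log2 fold change of 2.56 (SE 0.50) stayed under 3, and the ranges overlapped.

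Among the Brn3 factors, POU-domain factors of RGC development, none was called and all ranges overlapped. At an unadjusted p under 0.05 the count was 1 of 3. Of all 17790 genes, 6525 were higher and 6931 lower at an adjusted p of at most 0.1 and any fold change. The 1 of 3 is thus no excess over all genes. *Pou4f1* had 11.2, 49.0 and 205 CPM in RGCs and 15.6, 20.1 and 23.8 CPM in the colliculus (log2 fold change 1.92, SE 0.41). *Pou4f2* had 8.52 CPM in the median RGC library and 8.58 CPM in the median collicular library, and *Pou4f3* 0.696 and 1.65 CPM. Of the synucleins, proteins of presynaptic terminals, *Sncb* had 121, 237 and 464 CPM in RGCs and 119, 157 and 208 CPM in the colliculus. It was not called, with a log2 fold change of 0.72 (SE 0.20) and ranges that overlapped.
Among 11 genes of RGC subtypes, 3 were higher and 2 lower, with 1 to 4 higher over 12 alternative settings. *Cartpt*, the neuropeptide of direction-selective RGCs, had 156, 501 and 1096 CPM in RGCs and 13.5, 20.1 and 32.8 CPM in the colliculus (log2 fold change 4.55, SE 0.30, adjusted p = 1.2e-12, edgeR). *Eomes* and *Tbr1*, factors of other subtypes, had medians of 0.864 and 0.372 CPM in RGCs and 0 and 0.813 CPM in the colliculus, and were not called.

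**Figure D2:**
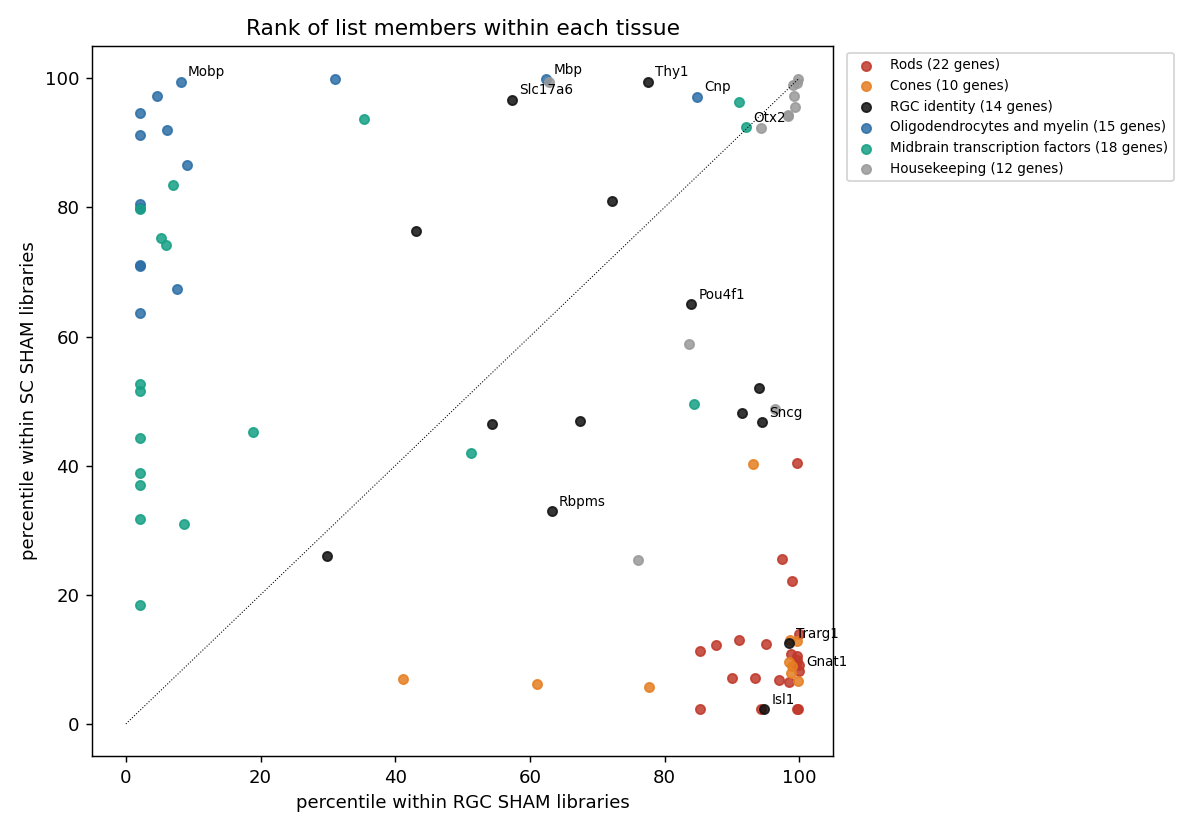
Percentile of the mean log2 CPM of list members among all genes tested, within RGC SHAM libraries (x axis) and within SC SHAM libraries (y axis), with 1 point per gene. Rod and cone genes sit at the lower right, myelin genes at the upper left, and RGC identity genes are spread, from *Isl1* at 94.8 against 2.3 to *Thy1* at 77.6 against 99.4.

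**Figure D3:**
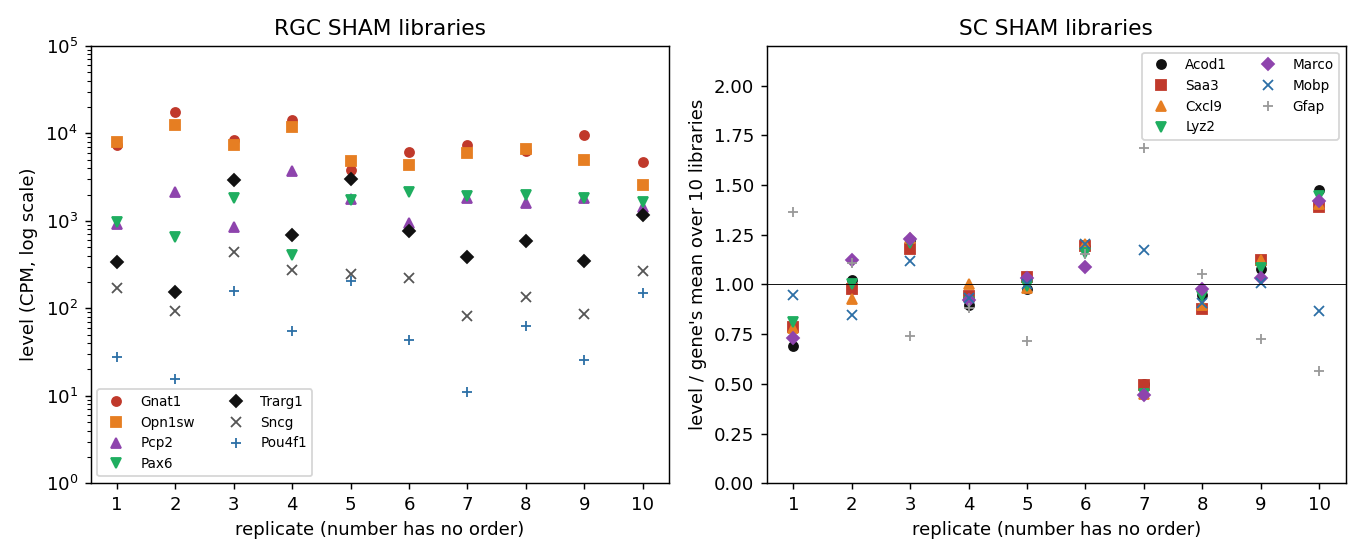
Left, level (CPM, log scale) of 7 genes in each of 10 RGC libraries. Right, level of 7 genes in each of 10 collicular libraries divided by the gene's mean. *Trarg1* spans 155 to 3021 CPM while *Acod1*, *Saa3*, *Cxcl9*, *Lyz2* and *Marco* lie close together in each collicular library.

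The RGC libraries differed more among themselves than the colliculi did. The biological coefficient of variation, from a fit within each tissue, was 0.806 in RGCs and 0.133 in the colliculus. For genes with a mean log2 CPM of 5 to 7, the SD of log2 CPM over 10 libraries had a median of 0.459 in RGCs (2659 genes) and 0.171 in the colliculus (3471 genes). At 9 and over it was 0.355 and 0.130. Rank correlations between libraries were 0.830 to 0.896 among RGCs and 0.971 to 0.981 among colliculi, as a description over genes. The spread from the sort and that from the library kit cannot be told apart.
Within the RGC libraries rod genes kept closer ratios to each other than to RGC genes: that of *Pde6g*, a subunit of the rod phosphodiesterase, to *Gnat1* counts was 0.289 to 0.426, whereas that of *Sncg* to *Gnat1* was 0.00537 to 0.0637 and that of *Trarg1* to *Gnat1* 0.00889 to 0.789. Replicates 2 and 4 had the highest rod sums, at 116530 and 112090 CPM, and replicate 5 had the lowest rod sum and the highest RGC identity sum.

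**Figure D4:**
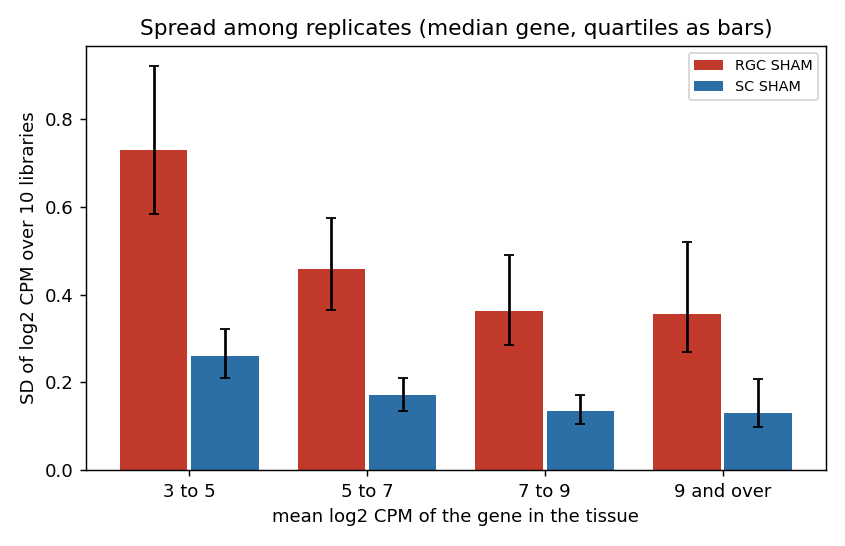
Median over genes of the SD of log2 CPM over 10 libraries, in bins of the mean log2 CPM of the gene in the same tissue, with RGC SHAM to the left of SC SHAM and quartiles of genes as error bars. The RGC bar is higher in each of the 4 bins, at 0.459 against 0.171 for a mean of 5 to 7.

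Myelin genes were lower in RGCs. Of 15 oligodendrocyte genes, 14 were lower in RGCs and 0 higher, against 13.7% lower among all genes tested. The ranges of all 15 were separate, as were those of 84.3% of all lower genes. The median log2 fold change was -9.61, and -9.03 with the 7 genes at 0 counts in RGCs set at their bound. *Mbp*, which compacts the myelin membrane, stood at 2.21, 12.2 and 28.5 CPM in RGCs and 1454, 1832 and 2264 CPM in the colliculus (log2 fold change -7.00, SE 0.28, adjusted p = 5.3e-17, edgeR). *Mobp*, another myelin protein, had 7 counts against 16864. *Cldn11*, of the tight junctions of myelin, had 0 counts against 4181 and was at least 1612-fold lower in RGCs. *Bcas1*, a marker of newly myelinating cells, had 0 against 4968 and was at least 1901-fold lower. *Olig1*, a lineage factor, was at least 1103-fold lower. *Cnp* was the exception, with a log2 fold change of -1.86 and 54.1 CPM in the median RGC library, which is most of the summed myelin level of 57.8 to 96.5 CPM in RGCs.

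Of 12 astrocyte genes, 8 were lower in RGCs and 0 higher. *Ntsr2*, of an astrocytic neurotensin receptor, had 5 counts in RGCs and 3668 in the colliculus, at 0, 0 and 1.48 CPM against 99.4, 109 and 128 CPM. *Gja1*, connexin 43, had 0, 0.182 and 18.2 CPM against 146, 187 and 209 CPM, and *Gfap*, the intermediate filament of reactive astrocytes, 0, 2.73 and 9.62 CPM against 46.3, 79.4 and 138 CPM. *Slc1a2*, the main glutamate transporter of astrocytes, had 40.9 to 156 CPM in RGCs and 806 to 970 CPM in the colliculus, a log2 fold change of -3.11 (SE 0.21). It lost the call with glmTreat and was not called in OHT (-2.91), SHAM+DREADD (-2.92) or OHT+DREADD (-2.82). *Aldoc*, an enzyme of glycolysis, was not called (log2 fold change 2.17, SE 0.12), with 2413 to 4713 CPM in RGCs and 638 to 1034 CPM in the colliculus.
Of 13 microglia genes, 10 were lower in RGCs and 0 higher, with sums of 9.64 to 78.1 CPM in RGCs and 414 to 757 CPM in the colliculus. *Tyrobp*, an adaptor of myeloid receptors, had 12 counts against 3014.
Of 5 oligodendrocyte precursor genes, 4 were lower, of 14 endothelial and mural genes 6 were lower and 1 higher, and of 9 meningeal and ependymal genes 8 were lower. *Ptgds*, prostaglandin D synthase of the meninges and choroid plexus, had 14.9, 30.5 and 63.3 CPM in RGCs and 472, 799 and 5509 CPM in the colliculus, where 4 libraries held 1981 CPM or more.

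Genes of stimulated myeloid cells were among the largest differences. *Saa3*, an acute-phase protein, had 0 counts in RGCs and 103, 210 and 289 CPM in the colliculus, and was at least 2677-fold lower in RGCs. *Acod1*, which makes itaconate in activated macrophages, had 0 against 91.8, 184 and 271 CPM. *Cxcl9*, an interferon-induced chemokine, *Cybb*, of the phagocyte oxidase, and *Marco*, a scavenger receptor, also had 0 counts in RGCs and medians of 135, 132 and 106 CPM in the colliculus.
The ratios among these genes varied little between the colliculi. The ratio of *Saa3* to *Acod1* counts was 1.047 to 1.291 over 10 libraries, with a coefficient of variation of 6.6%, where counting alone gives 5.74%. For *Cxcl9* it was 8.05% against 6.44% from counting. For *Cybb* it was 5.75% against 6.41% from counting, for *Marco* 6.77% against 7.02%, and for *Lox*, of collagen cross-linking, 6.38% against 7.41%. Over all 41 collicular libraries, with every treatment, the ratio of *Saa3* to *Acod1* was 1.047 to 1.314 (6.15% against 5.57%). The others exceeded counting there by more, with 8.61% against 6.22% for *Cxcl9*, 7.39% against 6.18% for *Cybb*, 9.48% against 6.78% for *Marco* and 9.95% against 7.16% for *Lox*. In contrast, it was 43.5% for *Mobp*, 47.3% for *Bcas1* and 74.0% for *Gfap* over the 10 libraries. With *Acod1*, Pearson's r was 0.979 for *Saa3*, 0.967 for *Vim*, and -0.785 for *Gfap*, as a description over 10 libraries. Library 7 had the lowest level of *Acod1* and library 10 the highest. Of 6219 other genes with a mean of at least 20 CPM in the colliculus, 61 had an r over 0.95 with *Acod1*, of which 46 were lower in RGCs and 0 higher, and they summed to 10605 to 23089 CPM per colliculus. Among these were *Lyz2*, *Vim*, *Col1a1*, *Acta2*, *C1qb* and *C1qc*, members of the lists of microglia, meninges, mural cells or Müller glia apart from *Lyz2*. *Lyz2*, *Vim* and this group of 61 were picked with their values known. The filter on the collicular level favors genes that are lower in RGCs. The share called lower among the 6219 genes that passed the same filter was not counted. The 46 of 61 is therefore not read as a result about this group. The part of these genes in the list counts was not tested.

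Most but not all factors of the retinal and midbrain lists were called in the direction of their list. Of 8 retinal factors, 6 were higher in RGCs and 1 lower. *Crx* had 12820 counts against 1 and a ratio of 11143 (95% counting interval 2000 to 440140), *Six6*, of the optic vesicle, had 3047 counts against 0 and was at least 861-fold higher, and *Lhx2*, shared by eye and forebrain, was lower (log2 fold change -4.20, SE 0.58). Of 18 midbrain factors, 12 were lower in RGCs and 0 higher, with 8 at 0 counts in all RGC libraries. The other 6 were not called, and among them *Meis1* had the highest log2 fold change of the list, at 2.40. *Gata3*, of midbrain GABA neurons, had 0 against 30.8, 39.3 and 46.6 CPM and was at least 515-fold lower. *Tal1*, of the same neurons, had 4 counts against 1024, *Pax7*, of the dorsal midbrain, 3 against 1062, 407-fold lower in RGCs (95% counting interval 139 to 1978), and *Zic1* 10 against 1722. *Tcf7l2*, a Wnt effector high in thalamus and midbrain, had 0, 1.71 and 11.7 CPM in RGCs and 85.3, 108 and 175 CPM in the colliculus. *Otx2*, which both photoreceptors and midbrain use, was level at 63.7, 128 and 186 CPM in RGCs and 80.5, 95.3 and 114 CPM in the colliculus (log2 fold change 0.34, SE 0.15).

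Among transmitter genes, 7 of 15 were higher in RGCs and 3 lower, and 4 to 7 were higher over 12 alternative settings. *Gad1*, which makes GABA, stood at 750, 3562 and 4810 CPM in RGCs and 247, 281 and 343 CPM in the colliculus (log2 fold change 3.52, SE 0.24, adjusted p = 1.7e-12, edgeR). It lost the call when scaled by library totals alone and with an offset for exonic length. A pair of other GABA genes had lower levels in RGCs: *Gad2* had 21.8, 76.0 and 101 CPM in RGCs and 274, 313 and 364 CPM in the colliculus (-2.14, not called), and *Slc32a1*, the vesicular GABA transporter, 0, 5.60 and 13.1 CPM against 80.8, 100 and 123 CPM (-4.32, SE 0.41). *Slc6a9*, a glycine transporter of amacrine cells and Müller glia, had a log2 fold change of 2.40. Of 14 neuropeptide genes, 3 were higher and 3 lower. *Vip*, of an amacrine type, had 5.82, 171 and 517 CPM in RGCs and 2.24, 3.71 and 5.73 CPM in the colliculus, while *Sst*, of midbrain and other interneurons, had 0, 0 and 3.16 CPM against 40.1, 52.3 and 72.0 CPM.

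Receptors and channels were mostly not called, as were 13084 of all 17790 genes tested. Of 24 glutamate receptor genes, 2 were higher and 5 lower, with 3 to 10 lower over 12 alternative settings. The higher ones were *Grm6* and *Grik1*, a kainate receptor of OFF bipolar cells, which had 77.8 to 287 CPM in RGCs and 4.68 to 12.7 CPM in the colliculus. *Grm5*, of postsynaptic metabotropic signaling, was lower, at 1.58, 6.64 and 22.3 CPM in RGCs and 115, 137 and 148 CPM in the colliculus (log2 fold change -4.07, SE 0.26). Of 20 GABA and glycine receptor genes, 3 were higher and 2 lower. *Gabrr1* and *Gabrr2*, the ρ subunits of the retinal GABA receptor, had medians of 357 and 352 CPM in RGCs and 2.91 and 4.93 CPM in the colliculus (6.97, SE 0.23, and 6.10, SE 0.25). *Gabra5* was lower at -5.66 (SE 0.56).
Of 32 voltage-gated channel genes, 2 were higher and 8 lower, with 7 to 15 lower over 12 alternative settings. *Scn1a* and *Scn2a*, sodium channels of the axon, had medians of 14.1 and 14.8 CPM in RGCs and 275 and 266 CPM in the colliculus (-3.91, SE 0.26, and -4.23, SE 0.21). *Cacna1f*, the calcium channel of photoreceptor synapses, was higher at 44.0 CPM in the median RGC library and 0.270 CPM in the median collicular library.

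Genes of transmitter release were high in both tissues. Of 21, 6 were higher in RGCs and 2 lower. *Snap25*, of the release machinery, ranked at the percentile 100 in RGCs and 99.8 in the colliculus, with 7537 to 14454 CPM against 1207 to 1438 CPM. Its log2 fold change of 3.06 (SE 0.10) lay just past 3. It lost the call with RLE or library total scaling, DESeq2, glmTreat and the length offset, and it was not called in SHAM+DREADD (2.97) or OHT+DREADD (2.88). *Cplx3*, the complexin of ribbon synapses, had 5320, 6902 and 7932 CPM in RGCs and 3.51, 4.98 and 8.23 CPM in the colliculus (10.32, SE 0.16, adjusted p = 7.3e-25, edgeR). *Vamp1*, a vesicle protein of fast central neurons, was lower, at 1.86 to 27.0 CPM against 261 to 381 CPM.
Of 19 genes of the axonal cytoskeleton, 2 were higher, 2 lower and 15 not called. *Nefl*, of neurofilaments, which RGC axons hold in plenty, had 241, 362 and 756 CPM in RGCs and 469, 569 and 625 CPM in the colliculus (-0.44, SE 0.16). *Stmn2*, of growing axons, stood at -2.09 (SE 0.17), *Tubb3*, a neuronal tubulin used to stain RGCs, at 1.78 (SE 0.19), and *Map2*, of dendrites, at -3.06 (SE 0.12), which was lower. *Map2* lost the call with glmTreat and with more than 5 reads asked for in at least 10 libraries. It was not called in SHAM+DREADD (-2.67) or OHT+DREADD (-2.71).

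Of 35 immediate early and dissociation-induced genes, 1 was higher in RGCs and 11 lower, with 7 to 15 lower over 12 alternative settings. *Fos* had 4.14, 21.03 and 64.7 CPM in RGCs and 7.89, 12.04 and 25.5 CPM in the colliculus, and *Jun* 6.96, 16.7 and 33.1 CPM against 17.4, 34.3 and 48.7 CPM, and neither was called. *Btg2*, an antiproliferative early gene, was higher, at 55.1 to 200 CPM against 3.95 to 12.4 CPM. *Nfkbia*, the inhibitor of NF-κB, was lower at -3.16 (SE 0.18). It lost the call with glmTreat and with the length offset. In OHT (-2.88), SHAM+DREADD (-2.94) and OHT+DREADD (-2.52) it was not called.
Of 12 housekeeping genes, 3 were higher and 1 lower, with 2 to 6 higher over 12 alternative settings. *Actb* differed by 0.37 (SE 0.12), whereas *B2m*, of MHC class I, was lower at -5.05 (SE 0.24), with 3.99 to 26.3 CPM in RGCs and 372 to 611 CPM in the colliculus. With an offset for exonic length it was not called. *Gapdh*, which has many processed copies in the genome, had medians of only 26.9 and 1.86 CPM in RGCs and colliculus, and the authors discarded reads with several alignments.

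The genes of highest level overlapped in part. Each top percentile held 178 genes, and 59 were in both. Of the 10 genes of highest level, 3 in RGCs and 8 in the colliculus were mitochondrial. The nuclear genes in the RGC top 10 included *Ubb*, a polyubiquitin gene, at 13530, 20912 and 25848 CPM against 103, 139 and 167 CPM (log2 fold change 7.24, SE 0.13), *Gnb1*, a transducin β subunit of rods, at 9807, 16310 and 25164 CPM against 279, 314 and 344 CPM (5.71, SE 0.17), and *Aldoa*, of glycolysis, at 12583, 16212 and 19328 CPM against 512, 602 and 667 CPM (4.77, SE 0.10). *Malat1*, a nuclear RNA, was high in both, with medians of 7923 CPM in RGCs and 3312 CPM in the colliculus.
Of 13 mitochondrial protein genes, 7 were lower in RGCs, 1 was higher and 5 were not called. *mt-Cytb* had 34890, 50116 and 79621 CPM in RGCs and 14004, 15380 and 18559 CPM in the colliculus (log2 fold change 1.80, SE 0.12), but *mt-Co2* had 12.7, 18.5 and 29.4 CPM against 4468, 5027 and 5707 CPM (-8.01, SE 0.15) and *mt-Nd3* a median of 1.42 against 1263 CPM. Nuclear copies of parts of the mitochondrial genome share sequence with these genes, and reads with several alignments were discarded, so that their values are uncertain.

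Calls also differed in kind. Of the 2260 higher genes, 1046 were protein-coding, 459 pseudogenes and 755 of other types, whereas of the 2446 lower genes 1904 were protein-coding, 211 pseudogenes and 331 of other types. Ranges were separate for 44.4% of the higher and 84.3% of the lower genes, and for 26.45% of the genes not called. With 0 counts in all colliculi and a mean of at least 5 CPM in RGCs there were 174 genes, 43 of them protein-coding, and with 0 counts in all RGC libraries and at least 5 CPM in the colliculus 205, 169 of them protein-coding.
The fold change followed exonic length. Over 5 length classes of equal size, from short to long, of protein-coding genes with at least 5 CPM in either tissue, the median was 0.37, 0.30, -0.06, -0.51 and -0.96. Of the shortest class 9.96% of genes were called higher and 14.1% lower, and of the longest 2.56% higher and 12% lower. Near the threshold, *Pts* had a log2 fold change just under 3 (62.5 to 108 CPM against 8.14 to 13.6 CPM) and was not called, *Smad5* lay just above -3 and was not called, and *Cd34* was just past -3 and was.

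**Figure D5:**
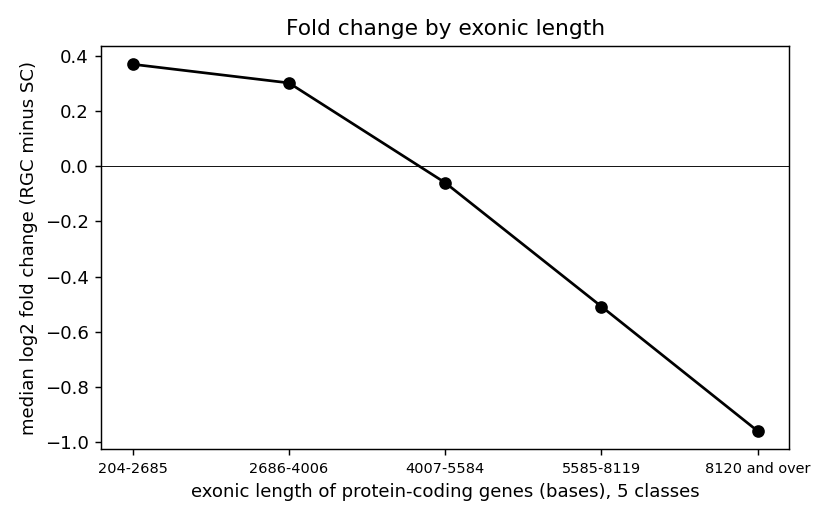
Median log2 fold change (RGC minus SC) by 5 classes of exonic length (bases) of protein-coding genes with a mean of at least 5 CPM in either tissue, 2307 to 2309 genes per point. It is 0.37 in the shortest class and -0.96 in the longest.

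The other groups of the series gave the same contrast in libraries that this comparison did not use. RGC over colliculus gave 2117 higher (11.8%) and 2679 lower genes (15%) of 17893 tested in OHT, 2177 (12.3%) and 2662 (15%) of 17723 in SHAM+DREADD, and 2129 (12.1%) and 2652 (15%) of 17634 in OHT+DREADD. Of the higher SHAM calls, 75.5% were called higher in OHT, 76.3% in SHAM+DREADD and 74.5% in OHT+DREADD, which are 80.6%, 79.2% and 79.1% of the higher calls of those groups. Of the lower SHAM calls, 80.2%, 78.4% and 78.2% were lower there, or 73.2%, 72.0% and 72.1% of the lower calls of those groups, and 0 were called in the opposite direction. All 22 rod genes and all 10 cone genes were higher in each of the 3 groups, 14 of 15 myelin genes were lower in each, and of the 14 RGC identity genes 5 or 6 were higher and 2 or 3 lower. Of 129 named genes called in SHAM, 115 were called in the same direction in all 3 other groups. Scaled within each tissue over all groups, the RGC identity sum had medians of 1554 CPM in OHT, 1142 CPM in SHAM+DREADD, 998 CPM in OHT+DREADD and 1193 CPM in SHAM, and the rod sum 44620, 35870, 40320 and 40480 CPM in the same order.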

How the data were processed

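Poly(A) RNA was sequenced from sorted RGCs and from whole colliculi (Illumina, single-end). The authors aligned reads to mm10 with HISAT2, discarded reads with several alignments and deposited raw counts per gene from HTSeq (2.7.14), 1 table per tissue with 41 libraries each. FastQC 0.11.7, SAMtools 1.5 and edgeR 3.14 are named in the submitters' processing notes. The annotation release and the strand setting are not given in the sources used here, so that overlapping and antisense genes are uncertain. Tables were joined by gene identifier (43629), and 42548 matched a symbol in GENCODE M21.

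Of the genes, those that exceeded 5 reads in 2 or more of the 20 libraries were tested in R 4.3.3 with edgeR 4.0.16 (TMM, quasi-likelihood), with Benjamini-Hochberg adjustment over 17790 genes. Calls were made where the adjusted p did not exceed 0.1 and RGCs and colliculus differed by 3 or more in log2. The SE is the size of the log2 fold change over the root of F. Bounds used a floor of 3 counts over the group. Percentiles, ratios and figures were made in Python 3.11.15. The test was checked on simulated counts. Eyes and brains were taken from the mice, but no source states that a replicate number marks 1 mouse. The tissues were therefore fitted without a block. The p-values and SEs rest on the spread between libraries within a tissue, which holds sort and library preparation as well as mice. They do not measure the choice of library kit. The fit used 1 dispersion per gene for both tissues, although the biological coefficient of variation was 0.81 in RGCs and 0.13 in the colliculus.

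Gene lists and the contrast were chosen with earlier results of these data known. Named genes were, per direction, the 15 called genes of largest change with a mean of at least 50 CPM, the 10 genes of highest level per tissue, up to 6 of highest level per list and those called against the list, up to 10 in both top percentiles, the genes next to the threshold, and all synuclein and Brn3 genes. The text gives values for a part of these. Alternatives were RLE and library total scaling, other filters and thresholds, DESeq2 1.42.0, glmTreat, a length offset, thinning to 2088172 counts, a replicate block and left-out libraries. Some named genes are not reported here.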

Additional observations from a re-analysis of the deposited data

Results flagged for a closer look

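A library that stood far from the other 9 of its group (Dixon's test) was found in 26 of 231 groups. These groups had values above 0 in 2 or more libraries. The test flags about 1 in 20 where values are normally distributed and groups are independent. Here levels were not transformed, some medians were 0, and list sums share genes with single genes tested. No excess is therefore read from the count. In 5 more groups only 1 library was above 0 (*Crx*, *Ntsr2*, *Tal1*, *Pax7* and *Zic1*), so that it stands apart by construction. No explanation was tested. RGC replicate 2 stood apart in the summed level of Endothelium and mural cells at 1040 CPM (high, group median 298 CPM), *Gja1* at 18.2 CPM (high, group median 0.182 CPM) and *Zic1* at 2.3 CPM (high, group median 0 CPM). RGC replicate 3 stood apart in *Pax7* at 0.744 CPM (high, group median 0 CPM) and *Grm5* at 22.3 CPM (high, group median 6.64 CPM). RGC replicate 4 stood apart in the summed level of Bipolar cells at 7450 CPM (high, group median 3172 CPM), *Pcp2* at 3672 CPM (high, group median 1701 CPM), *Trpm1* at 976 CPM (high, group median 266 CPM), *Grm6* at 292 CPM (high, group median 127 CPM), *Mobp* at 1.82 CPM (high, group median 0 CPM), *Tal1* at 1.45 CPM (high, group median 0 CPM), *Gabra5* at 4.36 CPM (high, group median 0 CPM) and *Cacna1f* at 99.9 CPM (high, group median 44 CPM). RGC replicate 5 stood apart in the summed level of Lens crystallins at 111 CPM (high, group median 11.8 CPM) and *Ntsr2* at 1.48 CPM (high, group median 0 CPM). RGC replicate 6 stood apart in *Slc6a9* at 618 CPM (high, group median 200 CPM) and *Pou4f3* at 14.6 CPM (high, group median 0.696 CPM). RGC replicate 8 stood apart in *Sst* at 3.16 CPM (high, group median 0 CPM). RGC replicate 10 stood apart in the summed level of Oligodendrocyte precursors at 45.4 CPM (high, group median 20.2 CPM). SC replicate 1 stood apart in *Tcf7l2* at 175 CPM (high, group median 108 CPM). SC replicate 6 stood apart in the summed level of Voltage-gated channels at 1722 CPM (low, group median 1977 CPM), *Crx* at 0.326 CPM (high, group median 0 CPM), *Eomes* at 0.651 CPM (high, group median 0 CPM) and *Tbr1* at 6.52 CPM (high, group median 0.813 CPM). SC replicate 7 stood apart in *Grm6* at 0.526 CPM (high, group median 0 CPM), *Bcas1* at 182 CPM (high, group median 144 CPM) and *mt-Cytb* at 18560 CPM (high, group median 15380 CPM). SC replicate 10 stood apart in the summed level of Muller glia at 2908 CPM (high, group median 2369 CPM), *Glul* at 1878 CPM (high, group median 1406 CPM), *Gja1* at 146 CPM (low, group median 187 CPM) and *Fos* at 25.5 CPM (high, group median 12.1 CPM).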

How the results depend on the processing

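The main counts were 2260 genes higher and 2446 lower. Asking for more than 5 reads in at least 10 libraries left 966 higher and 1676 lower genes of 13622 tested. Of these calls 36.6% were higher, against 48.0% in the main fit. A log2 fold change of 2 gave 3421 higher and 3923 lower genes, and one of 5 gave 960 and 1126. Leaving out 1 library at a time gave 2147 to 2274 higher and 2402 to 2577 lower genes. The replicate block gave 1980 higher and 3628 lower genes. Library numbers of the same replicate differ by a constant 43 between the tissues in all 10 cases, which is consistent with 1 mouse per number, but no source states it. Deviations of same-numbered libraries correlated at only -0.018 to 0.135 over 6919 genes, the best partner being the same number for 2 of 10, which does not show that they are unpaired. Under the block 2 named genes lost their call, *Tyrp1* among them, and 8 gained one, among them *Hbb-bs*, *Hbb-bt*, *Alas2* and *Gria1*. Of 129 named genes called, 104 were called under all 12 alternatives, 25 lost the call under 1 or more, 24 others gained it, and 0 reversed. The kit differs between the tissues in every library, so that no alternative separates it from the tissue. Levels in the colliculus under about 0.0894 CPM, the floor of 3 counts over the group, could not be seen at this depth.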

Other observations

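The lists of tissues next to the retina and of blood are read beside 12.7% higher and 13.7% lower among all genes, and their counts depended on the setting. Of 8 retinal pigment epithelium genes, 5 were tested, of which 1 (*Tyrp1*) was higher in RGCs and 2 (*Lrat* and *Ttr*) were lower, and their sum was 0 to 4.71 CPM in RGCs and 4.74 to 43.8 CPM in the colliculus. Of 16 lens crystallins, 9 were tested, 0 were higher and 1 (*Cryab*, a small heat shock protein also of glia) was lower, with 0 to 3 higher and 0 to 2 lower over 12 alternative settings.

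Of 7 blood cell genes, 0 were higher and 1 (*S100a8*, of neutrophils) was lower, with 0 to 5 lower over 12 alternative settings and 5 lower with the replicate block. The list summed to 505 and 742 CPM in RGC replicates 2 and 6 and to between 4.14 and 67.2 CPM in the other 8 RGC libraries, against 103 to 1038 CPM in the colliculus. In the other groups 6 of 7 were lower in OHT, 5 in SHAM+DREADD and 4 in OHT+DREADD.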
